A study of Mus musculus with 4 samples.

Results

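Smooth muscle contractile genes build the apparatus that lets the muscle of vessel walls and hollow ducts shorten. The set described here has 9 members: Acta2, Actg2, Myh11, Cnn1, Tagln, Smtn, Lmod1, Des and Prkg1. They were chosen by gene symbol from a platform annotation of the probe sets, out of 19505 genes with a probe set, and each member had 1 probe set. A probe set is the group of array probes that reads 1 transcript cluster. In smooth muscle, filaments of smooth muscle actin slide along filaments of smooth muscle myosin once calcium has switched the myosin on, and calponin, transgelin and smoothelin sit on the actin side. Many of these genes are switched on by serum response factor and its coactivator myocardin, and in fat the usual source is the muscle coat of arteries and veins. The epididymis and the vas deferens, which lie against the epididymal fat pad, have muscular walls too.

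RNA came from the epididymal adipose tissue of male mice and was read on 4 Clariom S Mouse arrays, with 1 array in each group. The groups were GW-SA (GW4869, an agent used to inhibit extracellular vesicles, with synergist ablation), GW-Sham (GW4869 with sham surgery), Veh-SA (DMSO vehicle with synergist ablation) and Veh-Sham (DMSO vehicle with sham surgery). Synergist ablation removes muscles that share the load of another, so that the remaining muscle is overloaded. The sources used here do not give strain, age, time after surgery or the number of mice per array. All values are deposited log2 expression values. With 1 array per group no difference has a replicate check, no p-value was computed, and every statement below describes these 4 arrays. In whole tissue, fewer cells of a type and less RNA per cell cannot be told apart.

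Transcripts of the male reproductive tract were present on GW-SA, GW-Sham and Veh-Sham, and differed in kind between them. The median of 9 sperm markers was 4.74 on GW-SA, 3.52 on GW-Sham, 3.84 on Veh-SA and 15.35 on Veh-Sham. The median of 10 epididymal markers was 15.17 on GW-SA, 3.62 on GW-Sham, 3.39 on Veh-SA and 4.50 on Veh-Sham. A list of 6 genes of the distal epididymis and vas deferens had medians of 4.26 on GW-SA, 11.42 on GW-Sham, 3.46 on Veh-SA and 11.46 on Veh-Sham. Of the 4 arrays Veh-SA was thus the one with low medians in all these lists. Adipocyte markers were high on every array, with medians between 16.63 and 17.14 over 11 genes. The array has 23 background rows, and their 95th percentile, used below as the background level, lay between 6.34 and 6.40. The 5222 rows marked as negative had a higher 95th percentile, between 9.01 and 9.27. Against that level Myh11, Smtn and Des were not clear of background on GW-SA and Veh-SA, nor was Cnn1 on Veh-SA. The same holds for any other reading below 9.01. A gene counted as measured in the comparisons when its mean over the arrays exceeded a floor of 4.67, the 40th percentile of gene means, which 11703 genes and all 9 members did.

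In every member both sham arrays read higher than both overload arrays, and Veh-SA read lowest. The same order of sham arrays above overload arrays was found in 10.1% of all genes above the floor. It held by at least 1.5-fold (0.58 on the log2 scale) for 7 of the 9 members and for 1.31% of all genes, the exceptions being Lmod1 with a gap of 0.34 and Prkg1 with a gap of 0.18. GW-Sham was the highest array for 5 members and Veh-Sham for 4. The members were selected with earlier results of these arrays known, so these counts describe the members and are no independent support.

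**Figure D1:**
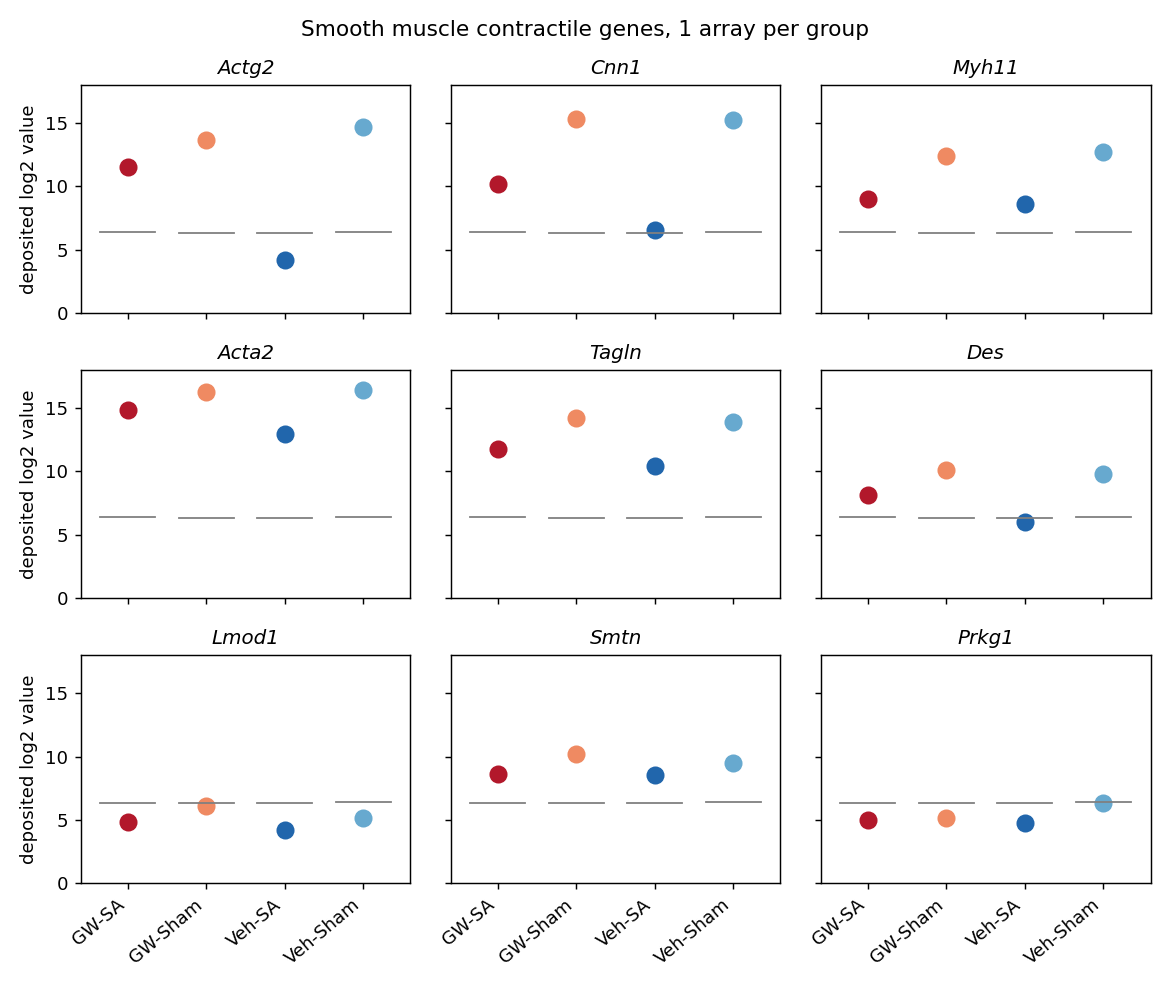
Deposited log2 values of the 9 contractile genes (vertical axis, 1 panel per gene) on the 4 arrays (horizontal axis), with 1 point per array and no error bar because each group has 1 array. Grey lines mark the 95th percentile of background rows on each array (6.34 to 6.40). In each panel Veh-SA is lowest, and Lmod1 and Prkg1 lie under the grey line on all 4 arrays.

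The actins form the thin filament. Acta2, the smooth muscle alpha-actin of vessel walls and of myofibroblasts, read 14.88 on GW-SA, 16.24 on GW-Sham, 12.97 on Veh-SA and 16.40 on Veh-Sham. It was far above background on each array, and the sham arrays differed from each other by only 0.16. Its overload difference, overload minus sham, was -1.36 under GW4869 and -3.43 under vehicle. Actg2, the gamma-actin typical of the smooth muscle of gut and other hollow organs, read 11.52 on GW-SA, 13.62 on GW-Sham, 4.23 on Veh-SA and 14.66 on Veh-Sham. Its Veh-SA reading lay under the floor, whereas the other readings lay well above background. The overload difference of Actg2 was -2.11 under GW4869 and -8.31 or lower under vehicle, taking the background level for the Veh-SA reading. With the higher level of the negative rows in its place, 9.19 on Veh-SA, the vehicle bound would be smaller in size. The range of Actg2 over the arrays was larger than that of 99.6% of genes above the floor, and that of Acta2 was larger than in 93.7%.

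The promoter of Acta2 is shown because it carries elements of the type bound by serum response factor. It is set beside that of Myl9, the regulatory light chain of smooth muscle myosin, whose readings followed the same order of sham above overload. Myl9 is not a member and was picked with its readings known. Other partners with that order, such as Tpm2 and Mylk, are not shown. The element searched was the CArG box, written as CCNNNNNNGG with at most 1 G or C among the 6 middle bases. This form reads the same on both strands and includes the strict box with only A and T in the middle. The search covered the 250 bases before each gene's start in RefSeq promoter sequences of build GRCm38.p6, where 6 of the 9 members had an entry. Capitals mark the boxes. The first sequence is chr19:34255378-34255477 on the minus strand and the second is chr2:156775283-156775394 on the plus strand.
Acta2: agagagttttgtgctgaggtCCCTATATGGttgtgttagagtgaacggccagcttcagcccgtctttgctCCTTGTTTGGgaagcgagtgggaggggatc
Myl9: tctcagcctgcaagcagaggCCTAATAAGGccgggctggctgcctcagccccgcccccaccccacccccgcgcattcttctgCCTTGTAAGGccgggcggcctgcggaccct

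The Acta2 boxes begin 84 and 34 bases before the start, and each has 1 G or C in the middle. The Myl9 boxes begin 161 and 99 bases before it, and the first is a strict box. A box of the searched form was present in 8.59% of 32851 promoter windows, and several were present in 0.67%. A strict box was present in 1.47%. By gene, 1 of the 6 members with a window had a box of the searched form, against 9.78% of all genes. That count is too small to be a result about the members. The windows of Cnn1, Des, Lmod1, Smtn and Prkg1 held none of these letters. A match is a description of the sequence and says nothing of binding in these samples. Myl9 read 9.50 on GW-SA, 12.20 on GW-Sham, 9.32 on Veh-SA and 12.36 on Veh-Sham, so each sham array exceeded each overload array.

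Myh11, the smooth muscle myosin heavy chain and the motor of contraction, read 8.99 on GW-SA, 12.41 on GW-Sham, 8.61 on Veh-SA and 12.71 on Veh-Sham. The overload arrays were close to each other and the sham arrays likewise. The overload difference was -3.42 under GW4869 and -4.10 under vehicle. Myh11 is the member in which the overload arrays were separated from the sham arrays by more than 3 log2 units while the GW4869 arrays stayed within 0.38 of their vehicle counterparts.

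The proteins that ride on actin filaments differed in size of change. Cnn1, the calponin that restrains myosin on actin, read 10.17 on GW-SA, 15.31 on GW-Sham, 6.55 on Veh-SA and 15.23 on Veh-Sham. The sham arrays differed by 0.08, and the Veh-SA reading was only just above its background level of 6.35. The overload difference of Cnn1 was -5.15 under GW4869 and -8.68 under vehicle. Tagln, encoding transgelin, an actin-bundling protein of differentiated smooth muscle, read 11.76 on GW-SA, 14.22 on GW-Sham, 10.45 on Veh-SA and 13.92 on Veh-Sham. Its overload difference was -2.46 under GW4869 and -3.47 under vehicle. Smtn, which encodes the cytoskeletal protein smoothelin of contractile smooth muscle, read 8.60 on GW-SA, 10.18 on GW-Sham, 8.58 on Veh-SA and 9.46 on Veh-Sham. The overload arrays of Smtn differed by 0.03, and its overload difference was -1.58 under GW4869 and -0.89 under vehicle. Leaving aside Lmod1 and Prkg1, which read at background, Smtn was the member with the smallest difference under vehicle.

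Des encodes desmin, the intermediate filament of smooth, skeletal and cardiac muscle. It read 8.13 on GW-SA, 10.12 on GW-Sham, 5.98 on Veh-SA and 9.76 on Veh-Sham. The Veh-SA reading lay under the background level, so it cannot be told from background, and the overload difference under vehicle was -3.41 or lower with the background level in its place. Under GW4869 the difference was -1.99, with both readings above the background level. The GW-SA reading lay under the 95th percentile of the negative rows on that array, 9.27. With the level of the negative rows for the low readings, both overload differences of Des would be smaller in size.

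Lmod1 and Prkg1 did not exceed the background level on any array. Lmod1, the leiomodin that starts new actin filaments in smooth muscle, read 4.86 on GW-SA, 6.09 on GW-Sham, 4.22 on Veh-SA and 5.19 on Veh-Sham. Prkg1, the cyclic GMP-dependent kinase that relaxes smooth muscle after nitric oxide, read 4.98 on GW-SA, 5.16 on GW-Sham, 4.72 on Veh-SA and 6.35 on Veh-Sham. The order of arrays in these 2 genes matched that of the others in having Veh-SA lowest, but their differences lie between readings at background level. The highest reading of Prkg1 was on Veh-Sham, the array with sperm transcripts.

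For overload under GW4869 the median difference of the 9 members was -1.99, with 8 at least 1.5-fold lower, 0 higher and Prkg1 between. In that comparison 15.3% of all genes were at least 1.5-fold lower and 13.4% higher, and the median of all genes was -0.04. For overload under vehicle the median of the members was -3.47, with 9 lower and 0 higher, against 16.9% of all genes lower, 30.2% higher and a median of all genes of 0.26. Lmod1, whose Veh-SA reading lay under the floor, had -0.52 with the floor in its place, short of 1.5-fold. Without Lmod1 and Prkg1, which read at background, the medians were -2.11 under GW4869 and -3.78 under vehicle, and the 7 other members were lower in each comparison. Each overload comparison includes an array with high sperm or epididymal markers, GW-SA in the first and Veh-Sham in the second. The pair with low medians of both lists is Veh-SA against GW-Sham, which differs in surgery and in injection, and across which the distal tract list also differs (median 3.46 on Veh-SA and 11.42 on GW-Sham). There the median of the members was -3.77, with 8 at least 1.5-fold lower, against 14.9% of all genes. Cnn1 had -8.76 and Myh11 had -3.80 in that pair. The part of the distal tract transcripts in these values was not tested.

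**Figure D2:**
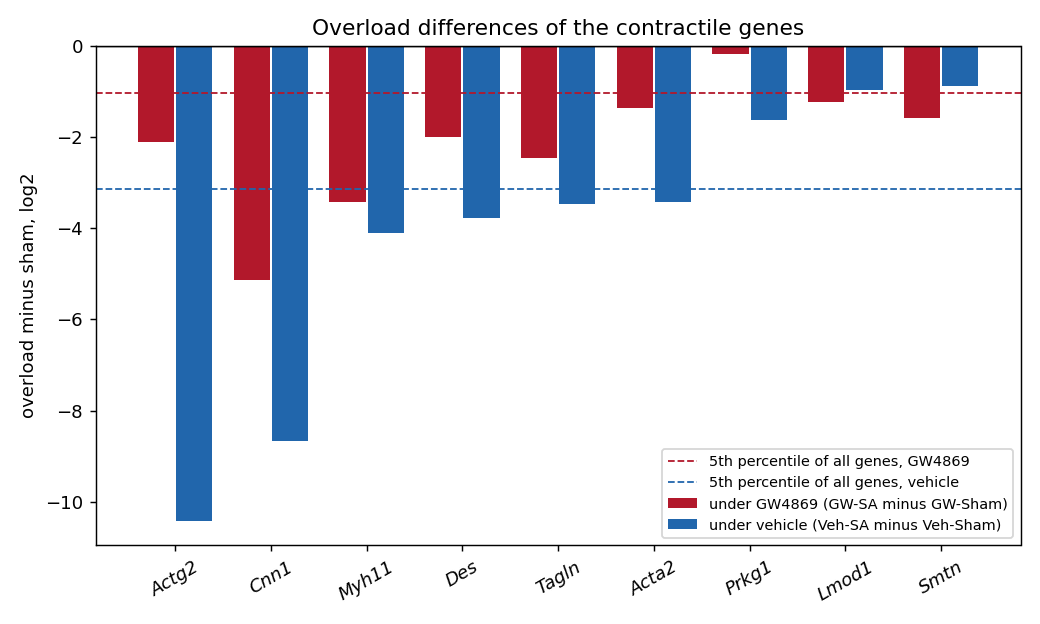
Overload minus sham on the log2 scale (vertical axis) for the 9 contractile genes (horizontal axis), with 1 bar for GW4869 and 1 for vehicle per gene and no error bars, as each bar is a difference of 2 arrays. Dashed lines give the 5th percentile of all 11703 genes, -1.03 under GW4869 and -3.13 under vehicle. All bars point down, and Actg2 and Cnn1 reach furthest under vehicle. The vehicle bars of Actg2 and Des use Veh-SA readings under the background level. All bars of Lmod1 and Prkg1 are differences between readings under that level.

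GW4869 against vehicle gave different pictures in overloaded and in sham mice. In overloaded mice the median of the members was 1.31, with 6 at least 1.5-fold higher and 0 lower, against 18.4% of all genes higher and 18.8% lower. With the background level taken for their Veh-SA readings, Actg2 was 5.17 or more and Des 1.78 or more higher on GW-SA than on Veh-SA. The higher level of the negative rows would give Actg2 a smaller minimum. It would give Des none, since its GW-SA reading lay under that level as well. Cnn1 was 3.61 higher, Acta2 1.91 and Tagln 1.31. The remaining one of the 6 was Lmod1 (0.63), which read at background and had 0.19 with the floor taken for its Veh-SA reading. The count was 5 with low readings raised to the floor, with centring on all genes, with quantile normalization and at 2-fold. Myh11 (0.38) and Smtn (0.03) differed little. These overload arrays also differed in epididymal markers, with medians of 15.17 on GW-SA and 3.39 on Veh-SA. The sham arrays differed in sperm markers, with medians of 3.52 on GW-Sham and 15.35 on Veh-Sham. The part of tract transcripts in either comparison was not tested. In sham mice the median was 0.08, with 2 members higher and 2 lower, against 28.9% of all genes higher and 14.4% lower. The higher ones were Lmod1 (0.90), which read at background, and Smtn (0.71), and the lower ones were Actg2 (-1.04) and Prkg1 (-1.20), of which Prkg1 read at background. Centring the arrays on adipocyte markers took Smtn to 0.21 and Lmod1 to 0.40, under the threshold, and Myh11 and Acta2 to -0.80 and -0.66, past it.

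The difference between the overload differences, GW4869 minus vehicle, was at least 1.5-fold positive for 7 members and negative for Smtn (-0.69). In that contrast 21.5% of all genes were positive by this size and 36.3% negative. With the background level taken in the same way, the value was 6.21 or more for Actg2 and 1.42 or more for Des. Against the higher level of the negative rows the minimum would be smaller for Actg2, and none would follow for Des. The value was 3.53 for Cnn1, 2.07 for Acta2, 1.01 for Tagln and 0.68 for Myh11, and 1.45 for Prkg1, which read at background. It was not tested against error, since each of the 4 arrays enters once. The contrast holds GW-SA with its epididymal markers and Veh-Sham with its sperm markers, and their part was not tested. The overload comparisons under GW4869 and under vehicle have no array in common, whereas each shares its arrays with the GW4869 comparisons.

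Partners of the contractile genes were drawn from 7 lists of the contraction pathway, written with earlier results of these arrays known, and up to 4 genes with the widest range are given from each. The counts are to be read against the shares of all genes, 15.3% lower and 13.4% higher for overload under GW4869 and 16.9% lower and 30.2% higher under vehicle, and a count in a short list near these shares is not a result about the list. Among 4 thin filament partners, 3 were at least 1.5-fold lower for overload under GW4869 and 2 under vehicle, with 0 higher in both. Tpm2, the beta-tropomyosin that lies along the actin filament, read 9.52 on GW-SA, 12.76 on GW-Sham, 8.93 on Veh-SA and 12.64 on Veh-Sham. Tpm1, the alpha-tropomyosin, had overload differences of -1.27 under GW4869 and -1.46 under vehicle. Cald1, encoding caldesmon, had -1.43 and -0.31, and Tpm4, a tropomyosin of many cell types, had 0.38 and -0.30 in the same order. The 2 muscle tropomyosins therefore read lower on both overload arrays, and Tpm4 did not.

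Among the 8 measured genes of the switch that turns myosin on and off, 5 were lower for overload under GW4869 and 2 under vehicle. The 2 were Myl9 and Mylk. Mylk encodes the kinase that phosphorylates the light chain and read 8.16 on GW-SA, 10.34 on GW-Sham, 6.55 on Veh-SA and 10.72 on Veh-Sham. Ppp1r12a, the targeting subunit of myosin phosphatase, had -1.09 under GW4869 and -0.52 under vehicle, and Ppp1r14a, an inhibitor of that phosphatase which read near background, had 0.54 and 0.36. Myl6, Rhoa, Rock1 and Ppp1cb, which serve most cells, had differences between -0.69 and 0.41 in the overload comparisons. Rhoa (-0.69) and Myl6 (-0.59, just past the threshold) are among the 5 counted lower under GW4869.

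Receptors, ion channels and the nitric oxide route did not share the pattern as lists. Of 5 contraction receptors above the floor, 4 were lower for overload under GW4869 and 1 under vehicle, where another was higher. The receptor lower in both was P2rx1, the ATP-gated channel through which sympathetic nerves contract the vas deferens and small arteries. P2rx1 read 4.98 on GW-SA, 8.97 on GW-Sham, 4.58 on Veh-SA and 8.61 on Veh-Sham, so it exceeded the background level on the sham arrays alone. Oxtr, the oxytocin receptor, had -2.02 under GW4869 and -0.18 under vehicle. Avpr1a, a vasopressin receptor which exceeded the background level on GW-Sham alone, had -1.22 and -0.48. Ednrb, an endothelin receptor, had 0.03 and 0.67. Of 7 calcium handling genes, 2 were lower and 1 higher in each overload comparison, but no gene was counted on the same side in both. The lower ones under vehicle were Atp2a2 (-0.75) and Cacnb2 (-0.91). Cacna1c, the pore of the L-type calcium channel, had -0.94 under GW4869 and 1.17 under vehicle, and Kcnmb1, the smooth muscle subunit of the large potassium channel, had -0.73 and -0.56. Orai1, a store-operated calcium channel, had 0.60 and 0.53, and Cacnb2 read at background.

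In the nitric oxide route around Prkg1, 3 of 5 genes were lower for overload under GW4869 and 0 under vehicle, where 1 was higher. Gucy1b1, a subunit of the guanylate cyclase that nitric oxide activates, had -1.09 under GW4869 and 0.57 under vehicle. Pde5a, which degrades cyclic GMP, had -0.83 and -0.14, and Pde3a, a related enzyme, had -0.13 and 0.76. Mrvi1, a substrate of the Prkg1 kinase which exceeded the background level on GW-Sham alone, had -0.81 and 0.06.

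**Figure D3:**
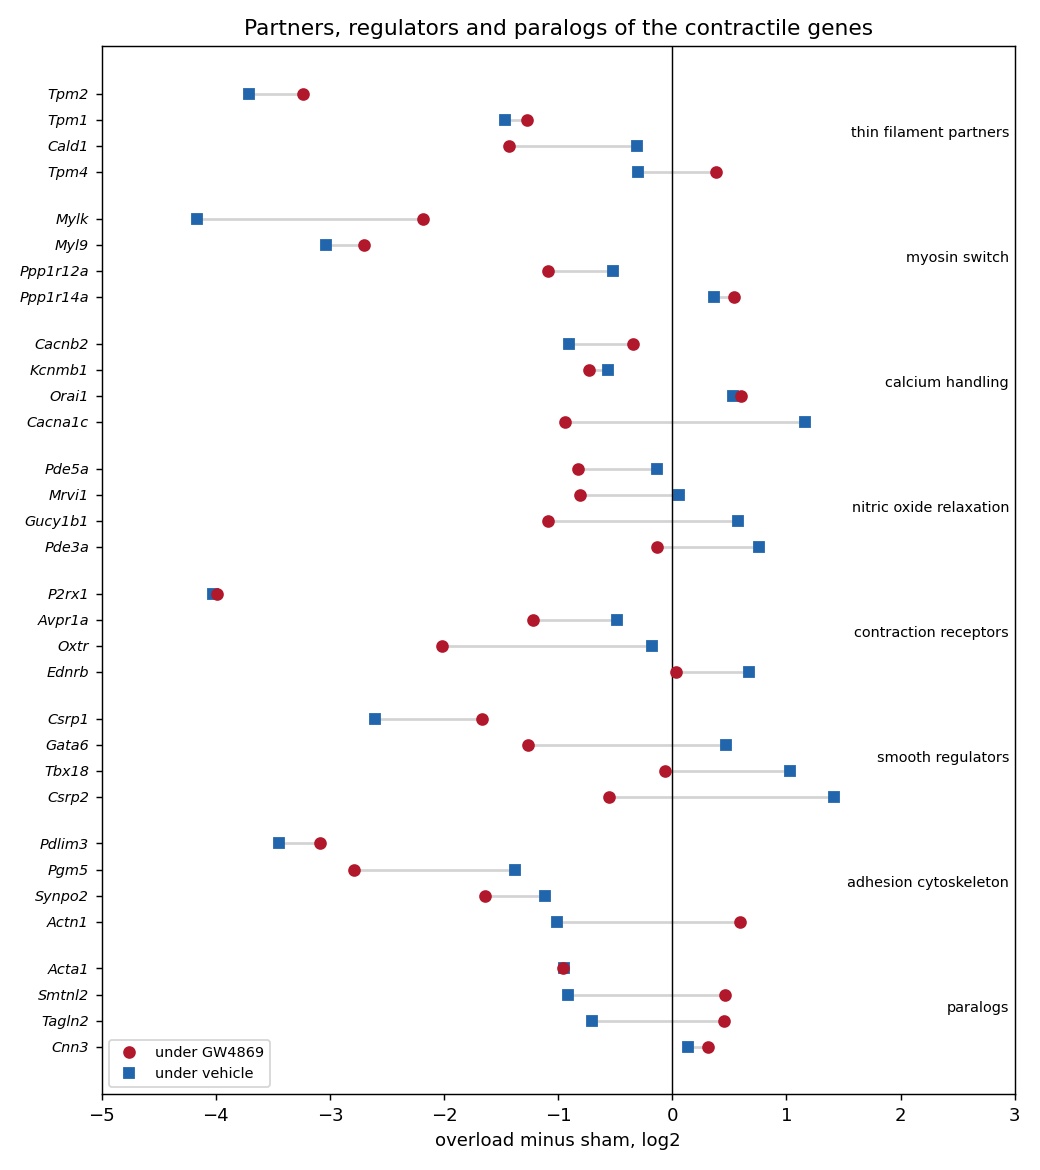
Overload minus sham on the log2 scale (horizontal axis) for the named genes of 7 contraction lists and of the paralogs (vertical axis, grouped), with a circle for GW4869 and a square for vehicle and no error bars, as each mark is a difference of 2 arrays. Tpm2, Mylk, Myl9, P2rx1, Csrp1 and Pdlim3 lie left of -1.5 under both injections, while the other genes lie nearer 0 in at least 1 of them.

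Of 10 regulators of smooth muscle genes, 4 were lower and 0 higher for overload under GW4869, and 1 was lower and 2 higher under vehicle, the last near the shares of all genes. Srf, the transcription factor that binds CArG boxes, read 7.42 on GW-SA, 7.65 on GW-Sham, 7.25 on Veh-SA and 7.42 on Veh-Sham, with its readings close together. Myocd, encoding myocardin, lay under the floor on all 4 arrays at 2.73 to 3.34. Csrp1, a LIM protein of smooth muscle that works with serum response factor, was the regulator lower in both comparisons, with 12.81 on GW-SA, 14.48 on GW-Sham, 11.67 on Veh-SA and 14.27 on Veh-Sham. Its relative Csrp2 had -0.55 under GW4869 and 1.41 under vehicle, and Gata6, a transcription factor of vascular smooth muscle, had -1.27 and 0.47. Tbx18 read at background, and so did Mrtfa, which is among the 4 lower under GW4869.

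Among 10 genes of adhesion plaques and the cytoskeleton, 5 were lower and 1 higher for overload under GW4869, and 6 were lower and 0 higher under vehicle. Itga8, among the 5 lower under GW4869, read at background. Pdlim3, a LIM protein bound to alpha-actinin in muscle, read 7.82 on GW-SA, 10.91 on GW-Sham, 6.99 on Veh-SA and 10.43 on Veh-Sham. Synpo2, an actin-bundling protein of smooth and striated muscle, had -1.64 under GW4869 and -1.12 under vehicle, and Pgm5, a muscle adhesion protein related to a sugar mutase, had -2.79 and -1.38. Actn1, the alpha-actinin of non-muscle and smooth muscle cells, had 0.59 and -1.01.

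Paralogs used by other cells were followed in the same way. Of 9 above the floor, 2 were lower and 0 higher for overload under GW4869, and 3 were lower and 1 higher under vehicle. Actb, the actin of all cells, read 19.00 on GW-SA, 19.00 on GW-Sham, 18.36 on Veh-SA and 18.83 on Veh-Sham, near the top of the deposited scale, whose maximum is 19.93. Myh9, the non-muscle myosin heavy chain, had overload differences of 0.35 under GW4869 and -0.32 under vehicle, where Myh11 had -3.42 and -4.10. Tagln2, a transgelin of many non-muscle cells, had 0.46 and -0.71 where Tagln had -2.46 and -3.47. Cnn3, the calponin found in most tissues, had 0.31 and 0.14 where Cnn1 had -5.15 and -8.68. Smtnl2, a relative of Smtn, had 0.46 and -0.91. Acta1, the skeletal muscle actin, had -0.96 and -0.95. Myh11, Tagln, Cnn1 and Acta2 thus had larger negative differences than these paralogs under both injections, and Smtn did under GW4869 alone.

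Markers of cell types that could hold these transcripts did not all go with them. Of 10 pericyte markers, cells that wrap capillaries, 8 lay above the floor. In them 1 was lower and 1 higher for overload under GW4869, and 0 were lower and 5 higher under vehicle, where 30.2% of all genes were higher. Centring on adipocyte markers, an alternative chosen after seeing the data, left 1 lower and 1 higher under vehicle. Rgs5, a regulator of G protein signalling used as a pericyte marker, read 10.96 on GW-SA, 12.02 on GW-Sham, 12.15 on Veh-SA and 11.45 on Veh-Sham, which places Veh-SA highest where every contractile gene had it lowest. Mcam, an adhesion molecule of vessel walls, read 13.73 on GW-SA, 14.11 on GW-Sham, 14.85 on Veh-SA and 13.96 on Veh-Sham. Of 7 arterial smooth muscle markers only 3 exceeded the floor, with 0 lower and 1 higher in each overload comparison. The higher ones were Notch3 (0.72) under GW4869 and Kcnab1 (0.96) under vehicle. Notch3 read at background and is also the pericyte marker counted higher under GW4869. Mustn1 among the 3 read between 10.92 and 11.31 on the 4 arrays.

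Endothelial markers, the lining cells of the same vessels, had a median overload difference of -0.73 under GW4869 and 0.84 under vehicle over 8 genes. Fibroblast markers had -0.78 and 0.77 over 9 genes, and adipocyte markers -0.37 and 0.42 over 11. The contractile genes, by contrast, had negative medians under both injections. Of 16 skeletal muscle markers, 3 to 5 exceeded the background level on an array. The 6 above the floor had median overload differences of -1.12 under GW4869, with 4 lower, and -0.35 under vehicle, with 3 lower and 1 higher. Myl1, a myosin light chain, read between 10.34 and 12.04, Acta1 between 7.44 and 8.76 and Ckm, the muscle creatine kinase, between 6.56 and 7.84, whereas the fast myosin heavy chains Myh1, Myh2 and Myh4, the light chain Mylpf and the regulator Myod1 lay under the floor on all 4. Of the markers above the floor, Acta1, Ckm and Casq1, a calcium store protein, read higher on both sham arrays than on both overload arrays. Myl1, Tnnt3 and Actn3 did not. Casq1 exceeded the background level on Veh-Sham alone. The part of skeletal muscle in the contractile readings was not tested. None of 8 cardiac muscle markers exceeded the background level on any array, nor did either of the 2 measured Schwann cell markers. Mesothelial markers had medians of -0.91 under GW4869 and 0.10 under vehicle over 6 genes.

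The marker list in which every gene read higher on both sham arrays than on both overload arrays was that of the distal epididymis and vas deferens. Its 6 genes were assembled from earlier results on the same arrays and so are no independent evidence. All 6 exceeded the background level on GW-Sham and on Veh-Sham, and 0 did on GW-SA and on Veh-SA. These genes therefore cannot show whether GW-SA lay above Veh-SA, as it did in the contractile genes. Their median was 4.26 on GW-SA with a range of 2.94 to 6.28, 11.42 on GW-Sham with 8.40 to 15.03, 3.46 on Veh-SA with 2.52 to 4.24, and 11.46 on Veh-Sham with 8.68 to 16.09. The median of the contractile genes was 8.99 on GW-SA, 12.41 on GW-Sham, 6.55 on Veh-SA and 12.71 on Veh-Sham. The part of tract muscle in the contractile readings was not tested. The sperm markers were high on Veh-Sham alone. Of the epididymal markers 9 of 10 exceeded background on GW-SA, against 1 on GW-Sham, 0 on Veh-SA and 3 on Veh-Sham. The medians of these lists did not have the order of the contractile genes. Spink8 of the epididymal list had it, with 12.28 on GW-SA, 13.16 on GW-Sham, 3.04 on Veh-SA and 16.10 on Veh-Sham.

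**Figure D4:**
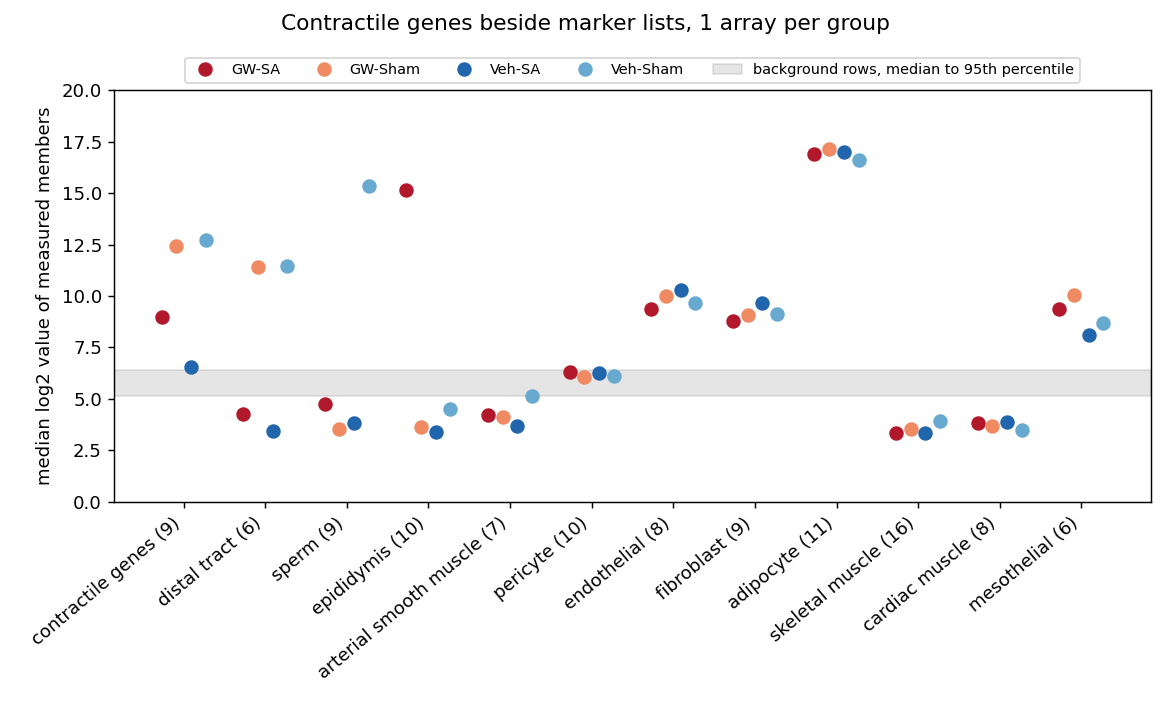
Median log2 value over the measured members (vertical axis) of the contractile genes and of 11 marker lists (horizontal axis, number of measured genes in brackets) on the 4 arrays, with 1 point per array. The grey band runs from the lowest median to the highest 95th percentile of background rows (5.12 to 6.40). The contractile genes and the distal tract genes are high on GW-Sham and Veh-Sham, sperm markers on Veh-Sham and epididymal markers on GW-SA.

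The members also differed among themselves in profile. Likeness was measured as the root mean square distance between log2 profiles over the 4 arrays, each gene centred on its own mean. Acta2, Tagln and Des lay within 0.39 of each other, and Myh11 within 0.87 of these. Cnn1 and Actg2 lay 1.40 apart and at least 1.95 from each of the other members, and their profiles spanned the widest ranges. Lmod1 and Smtn lay 0.23 apart, the closest pair of members, although Lmod1 read at background.

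Among 11266 named genes above the floor, the nearest to Myh11 was Tpm2 at 0.22, followed by P2rx1 at 0.26 and Akr1b10, an aldo-keto reductase, at 0.39. The nearest to Acta2 were Casq1 (0.31), a calcium store protein of skeletal muscle that exceeded the background level on Veh-Sham alone, Des (0.32) and Csrp1 (0.33). For Tagln they were Ptprz1 (0.11), Adgrg7 (0.13) and Casq1 (0.23), for Des they were Prr15 (0.24), Tagln (0.30) and Acta2 (0.32), and for Smtn they were Gata2 (0.05), Vps18 (0.10) and Synpo2 (0.11). The nearest to Actg2 were Spink8 (1.02), a protease inhibitor gene of the epididymal list, Cnn1 (1.40) and Plac8 (1.68). The nearest to Cnn1 were Cited1 (0.92), of the distal tract list, Cd52 (1.20), which epididymal epithelium expresses as well as lymphocytes, and Actg2 (1.40). Lmod1 and Prkg1, at background, were nearest to Adam4 (0.11) and Nsun4 (0.06). A profile of 4 values is short, so near matches among so many genes are a description of these arrays alone.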

How the data were processed

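The values are on a log2 scale, 1 per probe set, as deposited by the authors. The submitters' processing notes name Partek and RMA, and versions, settings and genome build were not found in the sources used here. The scale reaches 19.93, and no detection flags come with it. The platform annotation gave 19572 probe sets 1 gene symbol and 0 several, and 2634 had none; 55 genes had several probe sets, and the one with the highest mean was used. Differences of log2 values were computed with Python 3.11.15 and pandas 2.3.3 for 5 comparisons, and genes past 1.5-fold were counted among 11703 genes above the floor. No test was run, since each group has 1 array; a fit of surgery and injection without their interaction would leave 1 degree of freedom and count the interaction as error. The members, lists and alternatives were chosen with earlier results of these arrays known. Of 194 symbols in 20 lists 176 were measured, 1 through an older name. Named genes are all members, up to 4 genes per list by range and the 3 nearest profiles per member; genes outside this were chosen after their values were seen. Counting was tested on simulated data. The number of arrays limits the precision.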

Additional observations from a re-analysis of the deposited data

Results flagged for a closer look

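Actg2 was the member whose GW4869 difference pointed in opposite directions by at least 1.5-fold at the 2 surgeries. GW4869 minus vehicle was -1.04 in sham mice (13.62 on GW-Sham, 14.66 on Veh-Sham) and 7.29 in overloaded mice (11.52 on GW-SA, 4.23 on Veh-SA). The Veh-SA reading lay under the background level, so the second value is 5.17 or more with that level in its place. The higher level of the negative rows would give a smaller minimum. Each value is a difference of 2 arrays, and the contrast between them was not tested. Epididymal markers had medians of 15.17 on GW-SA and 3.39 on Veh-SA, and their part in the second value was not tested.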

How the results depend on the processing

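The medians of the 9 members stayed negative and past 1.5-fold for both overload comparisons under every setting run, from -1.74 (centred on adipocyte markers) to -3.77 (Veh-SA in place of GW-SA) under GW4869 and from -3.44 (centred on all genes) to -3.82 (centred on adipocyte markers) under vehicle. For GW4869 in sham mice, centring on adipocyte markers gave 0 members higher and 4 lower and turned the median to -0.42, 2-fold in place of 1.5-fold gave 0 higher, and leaving out Lmod1 and Prkg1, an alternative chosen after seeing the data like the exchanges of arrays, gave 1 higher and 1 lower. For the difference between the overload differences, members at least 1.5-fold negative numbered 0 with adipocyte centring and at 2-fold, and 2 with quantile normalization and with low readings raised to the floor. Of 368 values of single members 8 dropped under the threshold, 4 passed it and 356 kept their side, 0 past it with the opposite sign. Settings that moved or dropped the floor, averaged probe sets or left out Lmod1 and Prkg1 could not change a member's value. The values from those settings are among the 356 and show no stability. Adipocyte centring moved the share of all genes lower in overload to 8.18% under GW4869 and 25.5% under vehicle, and higher to 23.4% and 14.0%. At 2-fold, 5.33% were lower under GW4869. No paired test was run, since each group has 1 array and the labels give no replicate numbers. Pairing by injection would count the difference between the overload differences as error. The differences within each injection are given as values. With 1 array per group no array could be left out of its group. The depth of signal limits Lmod1 and Prkg1 on all arrays, and Actg2 and Des on Veh-SA. Against the higher level of the negative rows it also limits Myh11 and Smtn on both overload arrays, Des on GW-SA and Cnn1 on Veh-SA.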

Other observations

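GW4869 against vehicle in sham mice gave these values for partners of the contractile genes. Of 10 regulators of smooth muscle genes 4 exceeded 1.5-fold and 0 were lower by that much, against 28.9% of all genes higher and a median of all genes of 0.27. Csrp2, a LIM protein of smooth muscle, was 2.15 higher, Gata6 1.58 and Oxtr, of the receptor list, 1.52. Cacna1c was 1.23 higher. Such values were not particular to smooth muscle partners, since 6 of 6 mesothelial and 6 of 9 fibroblast markers were at least 1.5-fold higher too. The contractile genes Acta2, Myh11 and Cnn1 had -0.16, -0.30 and 0.08 in the same comparison. Centring on adipocyte markers left 2 of the 10 regulators higher and moved the shares of all genes to 9.89% higher and 29.0% lower.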
